A study of Xenopus laevis with 12 samples.

Results

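The genes of the Wnt pathway were read in whole brains of Xenopus laevis tadpoles, in 12 libraries made by RNA sequencing. They were chosen by gene symbol alone. The set held every gene named as a Wnt ligand, a Frizzled receptor, a secreted Frizzled-related protein or a Dickkopf, together with the LRP co-receptors, R-spondins and their LGR receptors, beta-catenin and the proteins around it, and the usual feedback targets. The rule found 101 of the 37018 genes counted. These carry 62 gene names, because Xenopus laevis is allotetraploid and often keeps a .L and a .S copy of a gene: 39 names were present as both copies and 23 as 1 copy.

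The study asked how early exposure to thioridazine, an antipsychotic drug of the phenothiazine class, alters gene expression in the later brain. Exposed embryos met 90 µM thioridazine at 18 °C from Nieuwkoop-Faber (NF) stage 14 to NF 26, and untreated wild-type controls were held at the same temperature over that window. All embryos were otherwise kept at 14 °C until they fed, exposure plates held 50 embryos per 10 mL, and brains were taken at NF 45 or NF 47. The exposed tadpoles are described by the labels as having brain abnormalities caused by the drug, and each of the 4 groups had 3 libraries. The labels give no genotype other than wild type, and the number of brains and the clutches behind a library are not stated, so p-values measure the spread between these samples.

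Wnt proteins are secreted, lipid-bearing signals that bind Frizzled receptors. In the canonical branch, Frizzled and LRP5 or LRP6 act through Dishevelled to disable a destruction complex of Axin, APC and GSK3, so that beta-catenin accumulates and works with TCF/LEF factors in the nucleus; other branches act on cell polarity and calcium. In the vertebrate brain the pathway is known for dorsal and posterior patterning, the midbrain-hindbrain boundary and the growth of neural progenitors, and its targets include several of its own inhibitors.

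Libraries held 12843954 to 18164871 counted reads. Neuronal markers of the labelled tissue, such as elavl3, snap25 and syt1, were present: all 25 genes of that list were detected, and their summed level lay between 5820 and 8710 CPM (reads of a gene relative to its library's total, after scaling for composition). Replicate 2 of both NF 45 groups stood apart from the other libraries. They lay at 104.4 and 118.3 on a first principal component that held 46.8% of the variance of all genes, where the other 10 libraries lay between -56.16 and 9.6. A list of 18 skin and epithelial genes, none of them at 0, summed to 295 and 267 CPM in these libraries, against 1270 to 2400 CPM in the other NF 45 libraries and 654 to 866 CPM at NF 47. A connective-tissue list of 26 genes, none at 0, summed to 940 and 964 CPM there, against 4170 to 5560 CPM in the other NF 45 libraries. The muscle list, none of its genes at 0, was high in them, at 2840 and 4020 CPM against 767 to 1580 CPM in the other NF 45 libraries. Of the neuronal genes named above, syt1.L was lowest there, at 4.43 and 2.34 CPM against 18.5 to 104 CPM in the other libraries. By contrast, elavl3.L was highest there, at 55 and 59.2 CPM. Values without these libraries are given for many of the genes named below.

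Other NF 45 libraries stood out in single lists. The list of liver, pancreas and gut genes, with fabp2.S and prss1.L at 0, summed to 1900 CPM in control replicate 3 and to 579 to 828 CPM in the other 11 libraries. The retina and pigment list, with no gene at 0, summed to 881 CPM in that library and 998 CPM in thioridazine replicate 1, against 195 to 516 CPM elsewhere. The part of these tissues in the Wnt-pathway values was not tested; for leading genes the range of the NF 45 value with each library left out in turn is given below.

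Of the 101 Wnt-pathway genes, 97 had at least 1 read in every library, and 95 passed edgeR's filter on low counts. The 6 that did not were all ligands: wnt10a.L, wnt6.S, wnt7c.S, wnt8a.L, wnt8a.S and wnt9b.2.L. None of these exceeded 13 reads in any library, and wnt8a.S, a copy of a ligand used in the early embryo for posterior patterning, had 0 reads in 9 of the 12 libraries. The tested genes were 24 ligands, 19 receptors, 18 secreted inhibitors, 13 genes of the R-spondin module, 13 intracellular components and 8 feedback targets. Together the 101 genes summed to 2258.9 to 2637.2 CPM per library, of which the beta-catenin copies ctnnb1.L and ctnnb1.S supplied 36.8% to 44%. The files give no transcript lengths, so levels are compared between libraries and never between genes.

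These genes varied over the whole series about as much as all genes tested. The median ratio of the highest to the lowest library was 2.03 for the tested Wnt-pathway genes and 1.91 for all 26570 genes tested. Among members above 1 CPM in every library the widest ratio, 5.2, belonged to sfrpx.L, of the secreted Frizzled-related group. It stood at 5.61 CPM in control replicate 2 and 4.52 CPM in thioridazine replicate 2 at NF 45, and between 10.8 and 23.5 CPM in the other 10 libraries. Both low values come from the libraries that stood apart.

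**Figure D1:**
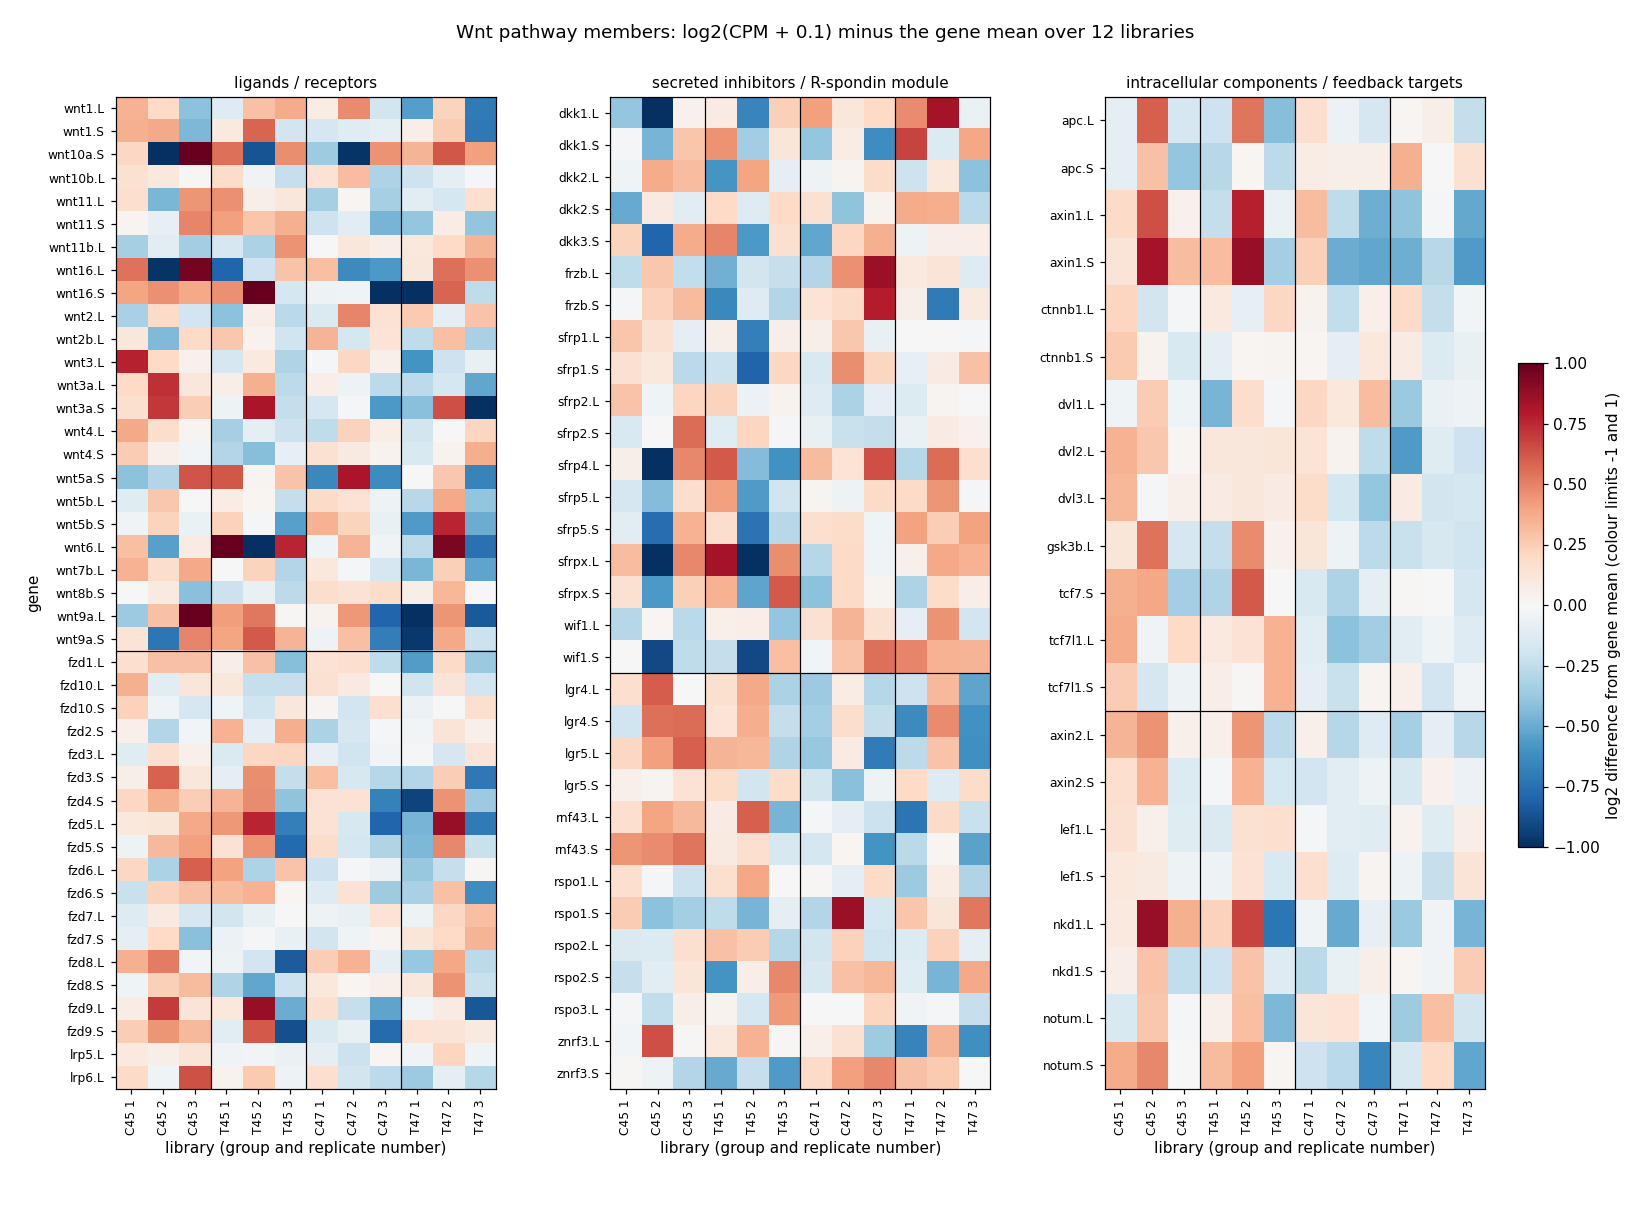
Level of each tested Wnt-pathway gene in each library, as log2(CPM + 0.1) minus that gene's mean over the 12 libraries; rows are genes grouped by role and columns are libraries (C, control; T, thioridazine; 45 and 47, NF stage). The columns of replicate 2 at NF 45 resemble each other across treatments, with feedback targets such as axin2.L high and sfrpx.L low in both.

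The first question was whether brains exposed to thioridazine differed from control brains in Wnt-pathway genes. No member passed the test at either stage. With edgeR's quasi-likelihood test and adjustment over all 26570 genes, 0 of 95 members were called at NF 45, 0 at NF 47 and 0 for the effect averaged over both stages, and the share called among all genes was 0% in each. The smallest adjusted p among the members was 0.99996, 0.99999 and 0.99992 in these comparisons. DESeq2 and limma-voom also called 0 members in each. Among all genes DESeq2 called 9 at NF 45 (0.0339%), 1 at NF 47 (0.00376%) and 28 for the averaged effect (0.105%). Limma-voom called 0 in each. At an unadjusted p under 0.05, edgeR gave 2 members at NF 45 against 1.98% of all genes, 1 at NF 47 against 1.1%, and 3 for the averaged effect against 2.95%. DESeq2 gave 3, 1 and 2 such members, against 1.99%, 1.15% and 3.02% of all genes. Limma-voom gave 7, 8 and 13, against 4.91%, 6.93% and 9.08%.

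Same-numbered control and exposed libraries of a stage varied together, so the fit was repeated with the replicate number as a block within stage. Members called were again 0 in each of these comparisons, while calls among all genes went from 0 to 6 at NF 45 (0.0226%), to 1 at NF 47 (0.00376%) and to 25 for the averaged effect (0.0941%). The smallest adjusted p of a member in the blocked fit of the averaged effect was 0.278, for fzd2.S. At an unadjusted p under 0.05 the blocked edgeR fit gave 7 members at NF 45, 4 at NF 47 and 7 averaged. Among all 26570 genes it gave 1521, 1157 and 2441.

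The intervals of the fit, which are not adjusted for the number of genes, show how closely each difference was measured. They do not give the size at which a member would be called over all genes. The median 95% interval of a member reached 0.519 log2 units to either side of its estimate at NF 45, 0.522 at NF 47 and 0.367 for the averaged effect. For 76 members at NF 45 and 78 at NF 47 the whole interval lay within 1 log2 unit of 0, that is, within a doubling or halving. For the rest the interval reached past 1 log2 unit, so a larger difference was not excluded at this depth and number of libraries.

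The direction of the estimates at NF 45 leaned lower in exposed brains. There 62 of 95 members (65.3%) had a lower estimate, against 50.9% of all genes, with a median of -0.08 on the log2 scale against -0.00. At NF 47 the count was 50 (52.6%, against 50.3% of all genes), with a median of -0.02 against -0.00. These counts and medians carry no test. When 1 library was left out, the NF 45 count was 53 to 63 and its median -0.14 to -0.011, the values nearest to even being without thioridazine replicate 3. At NF 47 the count was 44 to 59 and the median -0.13 to 0.044, above 0 without control replicate 1 or 2 or thioridazine replicate 1 or 3. The stages share no library, though same-numbered exposed libraries varied together between stages. At both stages 39 members (41.1%) were lower, against 31.7% of all genes, and 22 (23.2%) were higher, against 30.5%. In a list of 80 other pathway genes, described below, 34 (42.5%) were lower at NF 45 and 29 (36.2%) at NF 47. Of 36 tested Wnt targets outside the symbol rule, 14 (38.9%) and 12 (33.3%) were lower. In both lists these shares were below those of all genes. In bulk tissue, fewer cells of a type and less RNA per cell cannot be told apart. A list of 33 tested cell-cycle genes was higher in exposed brains in 33 of 33 estimates at NF 45 and 31 of 33 at NF 47, with 0 called. The summed level of its 37 genes, none at 0, was 1830 to 2120 CPM in NF 45 controls, 1990 to 2770 CPM in exposed NF 45 brains, 1620 to 1850 CPM in NF 47 controls and 1770 to 2020 CPM in exposed NF 47 brains. The part of this list in the Wnt-pathway values was not tested.

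Among the ligands, 14 of 24 had a lower estimate in exposed brains at NF 45 and 14 at NF 47. Here and below, many genes were named for a small p, and their intervals are not adjusted for that choice. In the main fit every member had an edgeR adjusted p of 0.9999 or more for thioridazine. The ligand with the smallest unadjusted p for the averaged effect was wnt3.L (NCBI Gene 108700866), a canonical Wnt. At NF 45 its controls were at 11.4, 7.67 and 6.85 CPM and its exposed libraries at 5.91, 7.14 and 5.38 CPM. At NF 47 the controls were at 6.57, 7.72 and 6.89 CPM and the exposed libraries at 4.36, 5.76 and 6.32 CPM. The exposed library was lower than the control of the same number in all 6 comparisons. The groups overlapped at NF 45 and did not at NF 47. The averaged log2 difference was -0.43 ± 0.16 (SE; 95% interval -0.78 to -0.07), with -0.49 ± 0.23 at NF 45 and -0.37 at NF 47. Without replicate 2 of both NF 45 groups, which stood apart, the NF 45 value was -0.68 and the averaged value -0.52. With 1 library left out the NF 45 value was -0.63 to -0.24, the last without control replicate 1.

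Its relative wnt3a.L (108718689), a roof-plate Wnt, was also lower in all 6 comparisons. Values at NF 45 were 4.2, 6.11 and 3.93 CPM in controls and 3.79, 4.68 and 3.02 CPM after exposure. At NF 47 they were 3.82, 3.5 and 3.02 CPM in controls and 3.01, 3.21 and 2.51 CPM after exposure. The groups overlapped at both stages, and the averaged difference was -0.28. The other copy, wnt3a.S, had an averaged difference of -0.01, and of -0.12 without replicate 2 of both NF 45 groups.

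Both copies of wnt4, a ligand of the polarity and calcium branches best known from kidney and gonad, separated the groups at NF 45. Control libraries held wnt4.L (397706) at 17.7, 15.4 and 13.9 CPM and exposed libraries at 10.8, 12.7 and 11.7 CPM, without overlap. The log2 difference was -0.42 ± 0.17 (95% interval -0.78 to -0.05), and -0.48 without replicate 2 of both groups. With 1 library left out it was -0.50 to -0.32. At wnt4.S (108697659) the control values were 9.34, 8.1 and 7.7 CPM and the exposed values 6.37, 5.8 and 7.39 CPM, again without overlap, with a difference of -0.36. At NF 47 the groups overlapped for both copies, with differences of -0.01 and 0.01.

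The other patterning ligands showed small averaged differences. The copies of wnt1, which marks the midbrain-hindbrain boundary and dorsal midline, had averaged differences of -0.17 (wnt1.L) and 0.06 (wnt1.S), the last being 0.010 without replicate 2 of both NF 45 groups. For wnt7b.L, known in mice for its part in brain vessel growth, the value was -0.25, and for wnt8b.S, a dorsal forebrain Wnt, it was -0.06, and -0.030 without those libraries. The polarity-branch ligand wnt5a.S, counted at 0.408 to 1.32 CPM, gave 0.09.

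Among the receptors, 14 of 19 were lower at NF 45 and 9 at NF 47. The Frizzled gene fzd8, known in Xenopus from the anterior neural plate, had both copies low in exposed brains at NF 45. Controls held fzd8.S (399367) at 5.94, 7.23 and 7.62 CPM, and exposed brains at 4.93, 4.24 and 5.26 CPM. The corresponding values of fzd8.L (373690) were 4.85, 5.42 and 3.7 CPM and 3.64, 3.29 and 2.07 CPM. Control and exposed libraries did not overlap for either copy. The difference was -0.53 ± 0.21 for fzd8.S (95% interval -0.97 to -0.08) and -0.64 ± 0.30 for fzd8.L (95% interval -1.28 to 0.01). Without replicate 2 of both groups the values were -0.39 and -0.58. With 1 library left out they were -0.62 to -0.44 and -0.80 to -0.43.

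At NF 47 the fzd8 copies did not repeat that separation. Controls held fzd8.S at 6.57, 6.2 and 6.33 CPM and exposed brains at 6.6, 8.38 and 5.23 CPM. For fzd8.L the values were 4.48, 4.82 and 3.52 CPM and 2.88, 4.96 and 3.12 CPM. Both sets of groups overlapped, with differences of 0.08 and -0.23. Averaged over the stages the differences were -0.22 for fzd8.S and -0.43 ± 0.21 for fzd8.L.

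The receptor fzd2.S (399141), of a Frizzled used in both canonical and polarity signalling, was the 1 member higher in exposed brains in all 6 same-numbered comparisons. At NF 45 it went from 32.8, 25.9 and 31.1 CPM in controls to 40.4, 29.8 and 40.8 CPM in exposed brains. At NF 47 controls were at 25.4, 28.2 and 31.4 CPM and exposed brains at 31.2, 34.8 and 32.9 CPM. The groups overlapped at both stages. The averaged difference was 0.26 ± 0.10 (95% interval 0.04 to 0.48), and 0.31 ± 0.14 at NF 45, or 0.20 to 0.44 there with 1 library left out. In all, 4 of 95 members kept 1 direction in all 6 comparisons, which is 4.21% of members against 6.3% of all genes. They were fzd2.S, higher (against 3.11% of all genes), and frzb.S, wnt3.L and wnt3a.L, lower (3.16%, against 3.19%).

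Among the other receptors, the averaged difference of fzd10.L was -0.20 ± 0.10, and that of fzd7.S was 0.29 ± 0.14 at NF 47 alone. For fzd5, a Frizzled of the eye field in Xenopus, the copies gave 0.19 (fzd5.L) and -0.07 (fzd5.S), and both estimates changed sign when 1 library was left out. The co-receptor lrp6.L gave -0.18. Leaving out replicate 2 of both NF 45 groups gave 0.0090 for fzd5.L, -0.19 for fzd5.S and -0.30 for lrp6.L.

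Secreted inhibitors bind Wnts or their co-receptors outside the cell; 8 of 18 were lower at NF 45 and 8 at NF 47. The most negative averaged estimate among them belonged to frzb.S (734982), a secreted Frizzled-related protein that binds Wnts. It was at 1.81, 2.18 and 2.31 CPM in NF 45 controls and at 1.14, 1.67 and 1.48 CPM after exposure. At NF 47 it was at 2.03, 2.11 and 3.24 CPM in controls and at 1.92, 1.09 and 1.97 CPM after exposure. Groups did not overlap at either stage, although all these values rest on low counts. The averaged difference was -0.55 ± 0.23 (95% interval -1.05 to -0.05), with -0.55 at NF 45 and -0.56 ± 0.32 at NF 47. Its other copy, frzb.L, gave -0.31.

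The remaining inhibitors did not share 1 direction. The Dickkopf gene dkk1, whose product blocks LRP6 and induces head structures in Xenopus, had averaged differences of 0.31 (dkk1.L) and 0.43 (dkk1.S). At NF 47, dkk1.S gave 0.70 ± 0.42 on levels of 0.492 to 1.35 CPM. The copies of sfrp1 gave -0.19 (sfrp1.L) and -0.16 (sfrp1.S), but -0.066 and -0.0059 when replicate 2 of both NF 45 groups was left out. With 1 library left out sfrp1.S gave -0.29 to -0.037. The count of lower inhibitors at NF 45 was 14 without control replicate 2 and 13 without thioridazine replicate 1.

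In the R-spondin module, R-spondins bind LGR receptors and keep the ubiquitin ligases ZNRF3 and RNF43 from removing Frizzled. Here 9 of 13 genes were lower at NF 45 and 8 at NF 47. The ligase gene rnf43.S (108709323) was at 9.2, 9.41 and 9.86 CPM in NF 45 controls and at 7.2, 7.59 and 6.03 CPM in exposed brains. These groups did not overlap, with a difference of -0.45 ± 0.21 (95% interval -0.90 to 0.00). At NF 47 they overlapped, at 5.97, 6.86 and 4.43 CPM and 5.58, 6.85 and 4.62 CPM, with a difference of -0.02. The R-spondin receptor lgr5.S gave 0.31 ± 0.15 at NF 47.

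Among the intracellular components, 10 of 13 were lower at NF 45 and 7 at NF 47. The Dishevelled gene dvl1.L (100381153), which relays the receptor signal, had the smallest unadjusted p at NF 47. Its values there were 28.2, 26.3 and 30.4 CPM in controls and 18.9, 23.3 and 23.6 CPM in exposed brains, without overlap. The difference was -0.37 ± 0.17 (95% interval -0.73 to -0.01). At NF 45 the groups overlapped, at 23.8, 29.2 and 23.8 CPM and 17.7, 27.7 and 24.2 CPM, and the averaged difference was -0.25 ± 0.12. A second Dishevelled gene, dvl2.L, gave -0.27 ± 0.16 at NF 47. The beta-catenin copies gave averaged differences of 0.05 (ctnnb1.L) and -0.06 (ctnnb1.S).

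Counted as feedback targets were the copies of axin2, lef1, nkd1 and notum, which canonical signalling can switch on. Genes counted in other roles may be such targets too. At NF 45, 7 of 8 had lower estimates in exposed brains, with a median of -0.06, and at NF 47 4 of 8, with a median of -0.00. Without control replicate 2, or without thioridazine replicate 3, the NF 45 count was 3 of 8. Without control replicate 2, or without thioridazine replicate 1, the intracellular count at NF 45 was 6 of 13. Averaged differences were -0.15 for axin2.L and -0.00 for axin2.S, copies of the Axin gene used widely as a readout of canonical signalling. They were 0.05 and -0.07 for lef1.L and lef1.S, whose product binds DNA with beta-catenin. For the Dishevelled-binding inhibitor nkd1 they were -0.20 (nkd1.L) and 0.06 (nkd1.S), and for notum, an enzyme that strips the lipid from Wnts, -0.09 (notum.L) and 0.10 (notum.S).

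**Figure D2:**
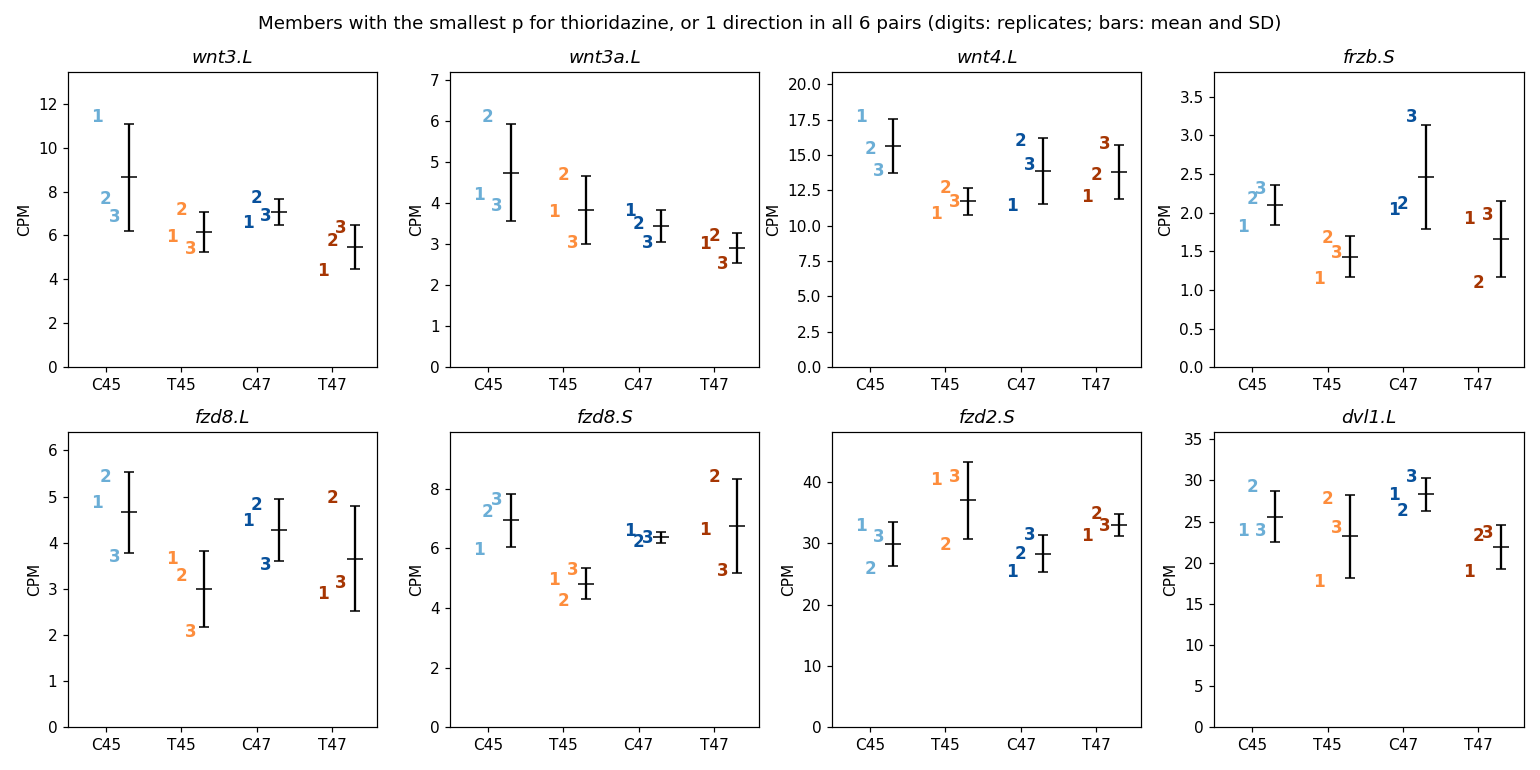
CPM of 8 Wnt-pathway genes in every library, by group (C45 and T45, control and thioridazine at NF 45, and C47 and T47, the same at NF 47). Digits are libraries, by replicate number, and bars are group means with SD. The groups at NF 45 are apart for wnt4.L, fzd8.L, fzd8.S and frzb.S, while at NF 47 they are apart for wnt3.L, frzb.S and dvl1.L.

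Counted over all members, groups that did not overlap were in 1 direction at NF 45. There 7 members (7.37%) were lower in all exposed libraries than in any control, against 1.56% of all genes. These were frzb.S, fzd8.L, fzd8.S, lrp5.L, rnf43.S, wnt4.L and wnt4.S. Members higher without overlap numbered 0, against 2.43% of all genes. The LRP co-receptor gene lrp5.L showed how small such a gap can be, with controls at 24.9, 24.2 and 25.5 CPM and exposed libraries at 22.7, 22.9 and 22.2 CPM. At NF 47 the counts were near the background in both directions. Lower were 4 members (dvl1.L, frzb.S, rspo3.L and wnt3.L; 4.21%, against 3.55% of all genes), and higher were 4 (fzd7.S, fzd9.S, sfrp2.S and sfrp5.S; 4.21%, against 3.81%).

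Whether the thioridazine effect differed between NF 45 and NF 47 was tested directly. No member passed: edgeR, DESeq2 and limma-voom each called 0 of 95, against 0% of all genes in edgeR, with a smallest member adjusted p of 0.99996. At an unadjusted p under 0.05 they gave 0, 0 and 2 members, against 0.342%, 0.32% and 2.36% of all genes. The smallest unadjusted p belonged to fzd8.S, whose exposed-minus-control value was 0.61 log2 units higher at NF 47 than at NF 45 (SE 0.29; 95% interval -0.02 to 1.24). Next came lrp5.L at 0.28, wnt4.L at 0.40 and rspo1.L, an R-spondin, at -0.44. They were followed by wnt16.L at 1.33, on levels of 1 CPM or less, and wnt4.S at 0.37. The median 95% interval for this difference of differences, not adjusted for the number of genes, reached 0.735 to either side. It does not give the size at which a member would be called over all genes. For 39 members the interval reached past 1 log2 unit, so a larger difference between stages was not excluded.

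**Figure D3:**
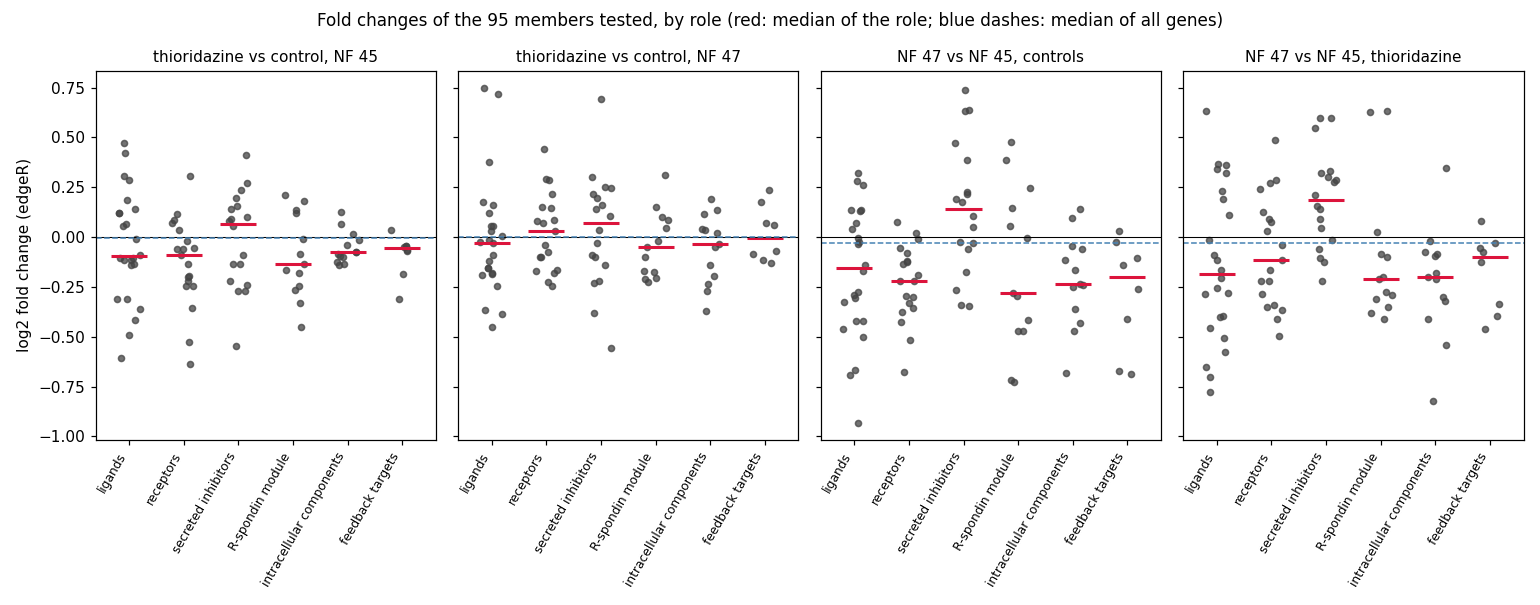
Log2 differences of every tested Wnt-pathway gene by role, in panels for thioridazine against control at NF 45 and NF 47 and for NF 47 against NF 45 in controls and in thioridazine; points are genes, red marks role medians and the blue dashed line the median of all genes tested. Role medians at NF 45 run from -0.14 for the R-spondin module to 0.07 for secreted inhibitors, and at NF 47 from -0.05 to 0.07 for the same roles.

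The second question was how the genes differed between NF 45 and NF 47. Averaged over both treatments, the members with the smallest p were tcf7l1.L, rnf43.S, wnt11.S, notum.S and axin1.S, lower in estimate at NF 47, and znrf3.S, higher. None passed edgeR's test: 0 of 95 members were called, against 2.99% of all genes (794 genes). The smallest adjusted p was 0.0583, for tcf7l1.L. The averaged fit treats control and exposed libraries of a stage as independent. Same-numbered ones varied together, so its standard errors, intervals and p-values may be too small. This limit holds for every averaged stage value and call below. At an unadjusted p under 0.05 there were 15 members by edgeR, against 20.6% of all genes, 16 by DESeq2, against 21%, and 30 by limma-voom, against 29%. DESeq2 called 6 members, against 8.19% of all genes: axin1.S, notum.S, rnf43.S, tcf7l1.L and wnt11.S lower, and znrf3.S higher. Limma-voom called 10, against 12.4% of all genes, of which 2 were higher and 8 lower. Calls among all genes depended strongly on single libraries. With 1 library left out they ran from 17 (0.0629%), without thioridazine replicate 1 of NF 47, to 1130 (4.18%), without thioridazine replicate 2 of NF 47. Without control replicate 2 of NF 45, edgeR called 1 member, tcf7l1.L, against 3.87% of all genes. Without replicate 2 of both NF 45 groups, it called 4 (apc.S, fzd6.L, tcf7l1.L and znrf3.S), against 14% of all genes. Scaling by library totals called 1 (tcf7l1.L), against 2.69% of all genes, and summing copies called 1 of 59 names (wif1), against 3.18%.

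Within controls alone and within exposed brains alone, edgeR also called 0 members, against 0% of all genes in each. The smallest adjusted p was 0.256 in controls and 0.386 in exposed brains. At an unadjusted p under 0.05 it gave 7 members in controls against 11.2% of all genes, and 5 in exposed brains against 9.63%. In controls DESeq2 called 0, against 1.58% of all genes, and gave 6 at that p, against 11.6%. Limma-voom called 2 (sfrp2.L and tcf7l1.L, against 3.34%) and gave 21 at that p, against 20.4%. In exposed brains both called 0, against 1.03% of all genes by DESeq2 and 0.00376% by limma-voom. At that p they gave 6, against 9.85%, and 14, against 16.9%. DESeq2 left 32 members in controls and 51 in exposed brains without an adjusted p. Same-numbered exposed libraries of the stages also varied together, and with the replicate number as a block the exposed comparison again called 0 members, while calls among all genes went from 0 to 1 (0.00376%).

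Estimates leaned lower at NF 47 in most roles. Averaged over treatments, 65 of 95 members (68.4%) were lower, against 54.3% of all genes, and the member median was -0.12 against -0.03. The comparisons within controls and within exposed brains share no library, but same-numbered control and exposed libraries of a stage varied together. In controls 66 members were lower (69.5%, against 53.8% of all genes) and in exposed brains 61 (64.2%, against 54.4%). Lower in both were 51 members (53.7%, against 43% of all genes), and higher in both were 19 (20%, against 34.8%). Leaving out 1 library kept the averaged count between 59 and 64. Without replicate 2 of both NF 45 groups the lower count was 60 averaged, 60 in controls and 52 in exposed brains. The member medians were then -0.064, -0.11 and -0.013, against 0.013, 0.015 and 0.010 for all genes.

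By role, the averaged count of lower genes was 16 of 24 ligands, 14 of 19 receptors, 10 of 13 genes of the R-spondin module, 11 of 13 intracellular components and 8 of 8 feedback targets. The secreted inhibitors stood on the other side, with 6 of 18 lower. The median was 0.16 for the inhibitors and between -0.21, for the intracellular components, and -0.14, for the feedback targets, in the other roles. The feedback count was 5 of 8 without replicate 2 of the NF 45 controls, of the NF 45 exposed group or of both, and the inhibitor count was 3 of 18 without thioridazine replicate 3 of NF 45. The feedback class held only the copies of axin2, lef1, nkd1 and notum. Genes of other roles that may also be targets went both ways, such as znrf3.S, higher in estimate, and rnf43.S, lower. The difference between roles was not tested.

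Marker lists differed with stage as well. All 33 tested cell-cycle genes were lower at NF 47, 6 of them called, and 23 of 25 neuronal genes were higher, 5 of them called. A list of 25 neural progenitor genes was mixed, with 16 higher, 9 lower and 0 called. Among all genes 54.3% were lower and 2.99% were called. The summed neuronal level, with no gene at 0, was 5820 to 7900 CPM in NF 45 controls, 6380 to 7260 CPM in exposed NF 45 brains, 8010 to 8440 CPM in NF 47 controls and 7380 to 8710 CPM in exposed NF 47 brains. The summed cell-cycle levels are those given above. Their part in the stage differences of the Wnt-pathway genes was not tested.

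The smallest p belonged to tcf7l1.L (397863), a TCF factor that represses targets when the pathway is off. NF 45 values were 21.8, 16.5 and 19.4 CPM in controls and 18.1, 18.7 and 21.5 CPM in exposed brains. NF 47 values were 15.7, 12.7 and 13.2 CPM in controls and 15.7, 16.4 and 15.4 CPM in exposed brains. Every NF 47 library was below every NF 45 library, and it was the 1 member (1.05%) of which this was so, against 1.57% of all genes. No member (0, against 2.35% of all genes) had every NF 47 library higher. Averaged over treatments the difference was -0.38 ± 0.098 (95% interval -0.60 to -0.17; edgeR adjusted p = 0.0583), with -0.47 ± 0.14 in controls (adjusted p = 0.266) and -0.30 in exposed brains. Without replicate 2 of both NF 45 groups the averaged value was -0.42.

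Among the ubiquitin ligases that clear Frizzled, copies differed in direction. The level of znrf3.S (735142) was 3.84, 3.68 and 3.08 CPM in NF 45 controls and 2.65, 3.23 and 2.54 CPM in exposed NF 45 brains. It was 4.36, 5.08 and 5.35 CPM in NF 47 controls and 4.68, 4.59 and 3.8 CPM in exposed NF 47 brains. Within each treatment all NF 47 libraries were higher. The averaged difference was 0.55 ± 0.15 (95% interval 0.23 to 0.88; edgeR adjusted p = 0.0681). It was 0.48 ± 0.21 in controls and 0.63 ± 0.21 in exposed brains, and 0.66 averaged without replicate 2 of both NF 45 groups. Its other copy, znrf3.L, gave -0.35.

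The other ligase, rnf43.S, with the library values given above, was 9.49 ± 0.337 CPM (SD, 3 libraries) in NF 45 controls and 5.76 ± 1.23 CPM in NF 47 controls. The control groups did not overlap, while the exposed groups, at 6.94 ± 0.809 and 5.68 ± 1.12 CPM, did. The difference was -0.72 ± 0.21 in controls (edgeR adjusted p = 0.256) and -0.50 ± 0.15 averaged (adjusted p = 0.085). Of the R-spondin receptors, lgr5.L was -0.73 ± 0.29 in controls (adjusted p = 0.386) and -0.52 averaged.

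The polarity-branch ligand wnt11.S (446915) was at 5.58, 5.17 and 7.7 CPM in NF 45 controls and at 7.28, 6.64 and 7.04 CPM in exposed NF 45 brains. At NF 47 it was at 4.72, 5.08 and 3.94 CPM in controls and at 4.17, 5.76 and 4.14 CPM in exposed brains. Within each treatment the stages did not overlap. Over both treatments it differed by -0.50 ± 0.15 (edgeR adjusted p = 0.0993), with -0.57 ± 0.22 in exposed brains.

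Most patterning ligands named before were lower in estimate at NF 47. Averaged differences were -0.22 and -0.28 for wnt1.L and wnt1.S, -0.43 and -0.53 for wnt3a.L and wnt3a.S, -0.24 for wnt5a.S and -0.27 for wnt7b.L. By contrast, wnt8b.S (399098) gave 0.29, and its stages did not overlap within either treatment. It was at 8.62, 9.22 and 6.47 CPM in NF 45 controls and 9.8, 9.57 and 9.85 CPM in NF 47 controls, and at 7.43, 8.2 and 7.21 CPM and 9.04, 10.9 and 8.63 CPM in the exposed groups. Leaving out replicate 2 of both NF 45 groups gave -0.13 for wnt1.L, -0.059 for wnt1.S, -0.20 for wnt3a.L, -0.19 for wnt3a.S and -0.37 for wnt5a.S.

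In the destruction complex, axin1.S (734298) had the widest averaged estimate among the leading genes. Its NF 45 values were 5.36, 8.79 and 6.08 CPM in controls and 6.06, 9.04 and 3.84 CPM in exposed brains. At NF 47 they were 5.79, 3.43 and 3.38 CPM and 3.46, 4.01 and 3.26 CPM. Stages overlapped in both treatments, and the highest library of each NF 45 group was replicate 2. The averaged difference was -0.75 ± 0.24 (95% interval -1.26 to -0.24; edgeR adjusted p = 0.103), and -0.82 ± 0.33 in exposed brains. Without replicate 2 of both NF 45 groups these were -0.42 and -0.44.

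For ctnnb1.L and ctnnb1.S the averaged stage difference was -0.08 and -0.03 (-0.13 for ctnnb1.L without replicate 2 of both NF 45 groups), and for dvl2.L -0.41 ± 0.15 in exposed brains and -0.32 averaged. Of the destruction complex, apc.S gave 0.35 ± 0.16 in exposed brains.

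Feedback targets leaned lower by unequal amounts. The level of notum.S (108702711) was 7.24, 7.85 and 5.62 CPM in NF 45 controls and 4.84, 4.62 and 3.52 CPM in NF 47 controls, without overlap. In exposed brains it was 6.97, 7.47 and 5.68 CPM at NF 45 and 5, 6.42 and 3.87 CPM at NF 47, with overlap. Over both treatments the difference was -0.54 ± 0.17 (edgeR adjusted p = 0.102), with -0.67 ± 0.24 in controls, while notum.L gave -0.01. The averaged value of notum.S was -0.41 without replicate 2 of both NF 45 groups.

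For axin2.L (373619) the control libraries were at 21.9, 23.7 and 17.9 CPM at NF 45 and at 17.9, 14.2 and 15.8 CPM at NF 47. In exposed brains they were at 17.9, 23.6 and 14.4 CPM and at 13.7, 16.3 and 14.3 CPM. The control groups were apart before rounding and the exposed groups overlapped. Averaged over treatments the values were -0.37 (edgeR adjusted p = 0.134) for axin2.L and -0.19 for axin2.S. Leaving out replicate 2 of both NF 45 groups gave -0.19 for axin2.L and -0.018 for axin2.S. Differences were -0.57 and -0.03 for nkd1.L and nkd1.S, with -0.23 for nkd1.L without those libraries, and -0.09 and -0.03 for lef1.L and lef1.S, with -0.032 for lef1.L without them.

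Receptors and inhibitors completed the comparison. The Frizzled gene fzd8.S was higher in estimate in exposed brains, by 0.49 ± 0.21 (edgeR adjusted p = 0.478), and its averaged difference was 0.18, with 0.08 for fzd8.L, or 0.21 for fzd8.L without replicate 2 of both NF 45 groups. For fzd5.L, fzd5.S and lrp6.L the averaged values were -0.32, -0.18 and -0.36. The value of fzd5.L was -0.15 without replicate 2 of both NF 45 groups, and -0.63 to -0.14 with 1 library left out. Of the inhibitors, wif1.S, which binds Wnts directly, gave 0.62, dkk1.L 0.64 and dkk1.S 0.01. Without replicate 2 of both NF 45 groups dkk1.L gave 0.40. The copies sfrp1.L and sfrp1.S gave 0.06 and 0.26, and sfrp2.L gave -0.34 ± 0.12 in controls (adjusted p = 0.343) and -0.22 averaged.

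**Figure D4:**
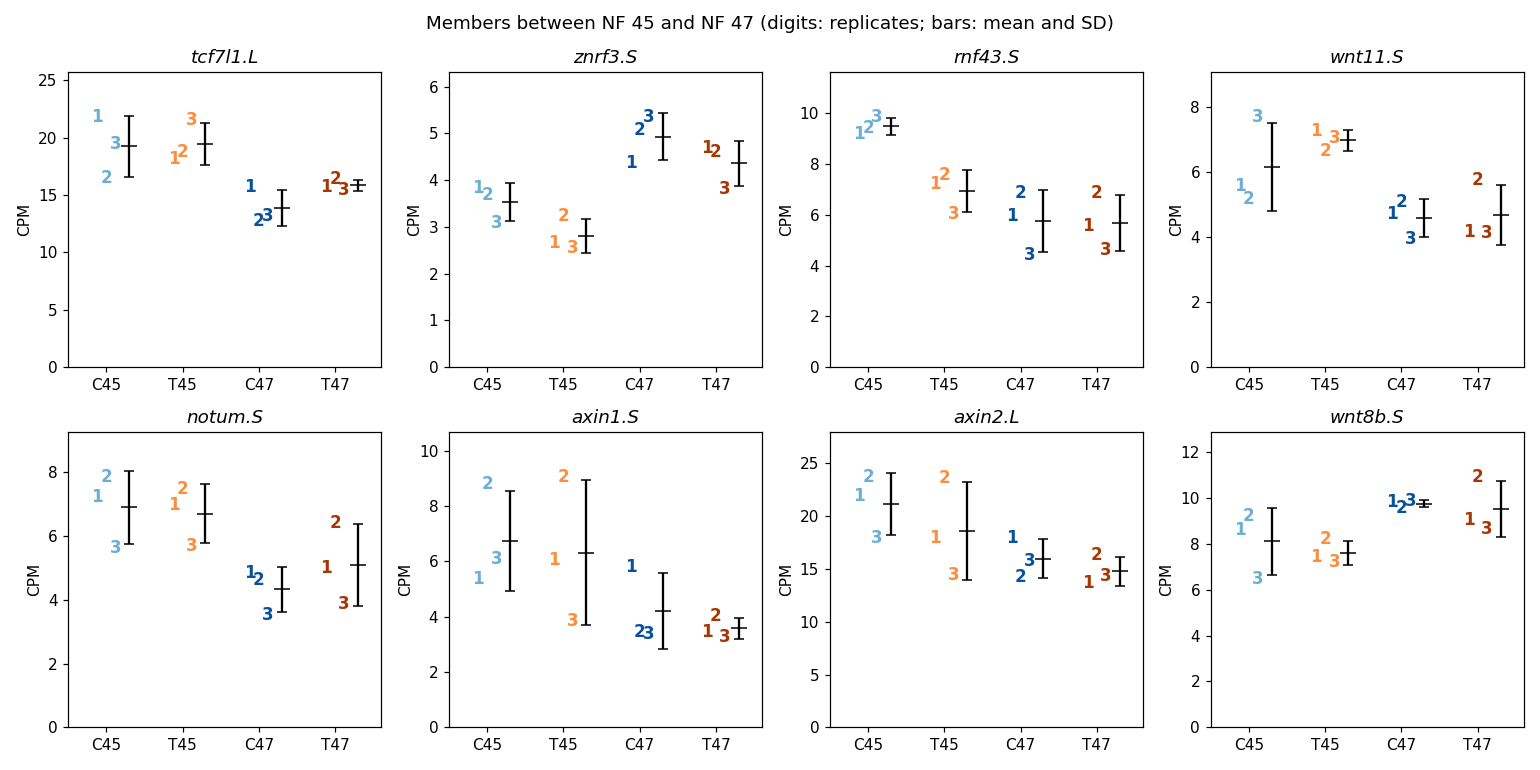
CPM of 8 Wnt-pathway genes with leading stage differences in every library, by group (C45, T45, C47 and T47 as labelled). Digits are libraries, by replicate number, and bars are group means with SD. For tcf7l1.L all 6 NF 47 libraries lie below all 6 NF 45 libraries, while for axin1.S the stages overlap in both treatments.

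Groups that did not overlap leaned lower with stage in controls. There 18 members (18.9%) were lower in all NF 47 libraries than in any NF 45 library, against 8.62% of all genes. Feedback targets among them were axin2.L, nkd1.L and notum.S, and genes of the R-spondin module were rnf43.L, rnf43.S, lgr5.L and lgr5.S. The others were fzd1.L, fzd4.S, fzd9.S, lrp5.L, sfrp2.L, tcf7l1.L, wnt11.S, wnt16.S, wnt3a.L, wnt3a.S and wnt7b.L. Higher were 5 (dkk1.L, wif1.L, wnt11b.L, wnt8b.S and znrf3.S; 5.26%, against 9.83%). In exposed brains the counts were near or below the background: 4 lower (dvl2.L, lrp6.L, tcf7l1.L and wnt11.S; 4.21%, against 5.98%) and 7 higher (frzb.L, fzd7.S, rspo1.S, sfrp5.S, wif1.S, wnt8b.S and znrf3.S; 7.37%, against 7.35%).

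The libraries that stood apart at NF 45 did so in Wnt-pathway genes too. In replicate 2 of both treatments together, 27 of 95 members (28.4%) were higher than in the other 4 NF 45 libraries, against 25.4% of all genes, and 18 (18.9%) were lower, against 25.9%. The roles fell on different sides. Highest in both libraries were 6 of 8 feedback targets and 7 of 13 intracellular components, while 9 of 18 secreted inhibitors were lowest in both. The skin list was lowest there in 18 of 18 genes and the connective-tissue list in 23 of 26 tested. Highest there were 14 of 17 muscle genes, 12 of 25 neuronal genes and 12 of 24 genes of choroid plexus and meninges. The part of those tissues in these values was not tested.

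Single genes show the size of this. The tumour-suppressor gene apc.L (399455), whose product is a scaffold of the destruction complex, was at 194 and 186 CPM in these libraries and at 95.5 to 120 CPM in the other 4 of NF 45. The Axin copies axin2.S, axin1.L and axin1.S were also highest there. The secreted inhibitor genes sfrp5.S, at 3.68 and 3.74 CPM, and sfrpx.S, at 16.3 and 16.8 CPM, were lowest, against 5.2 to 8.08 CPM and 27 to 37.1 CPM in the other 4. At NF 47, replicate 2 of both treatments was highest in 20 members (21.1%, against 9.54% of all genes) and lowest in 6 (6.32%, against 10.5%). Those 20 included 8 of 24 ligands and 6 of 13 genes of the R-spondin module, among them lgr4.L, lgr4.S, lgr5.L and rspo2.L. Lowest there were both ctnnb1 copies.

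The .L and .S copies of a gene were compared as shares of their joint reads, uncorrected for length and therefore read only between libraries. The counting could have split reads between copies, since its treatment of such reads is not given in the sources used here. Of 39 genes with both copies, 34 had at least 20 reads in every library. Among these 34, the .L copy held most reads in 23, and its share ranged over a median of 14.8 percentage points between libraries. Shares were highest for wnt5b (87.8%, range 84.7 to 90.2), rspo2 (87.4%, 80.4 to 93.2) and rspo1 (84.5%, 73.6 to 91.3). They were lowest for wnt1 (21.4%, 14.8 to 29.3), nkd1 (27.3%, 17.9 to 35.5) and lgr5 (27.5%, 17.4 to 34.7). For axin2 the share stayed between 29.2% and 36%.

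For znrf3, whose copies differed in direction with stage, the .L share averaged 66.2% and 70.5% in control and exposed brains at NF 45 and 54% and 52.3% at NF 47. Within each treatment the stages did not overlap. Controls were at 60.4% to 71.9% at NF 45 and 46.5% to 58.8% at NF 47. Exposed brains were at 70.3% to 70.8% and 44.3% to 62.3%. Across treatments they overlapped, with 60.4% in a control library at NF 45 and 62.3% in an exposed library at NF 47. The shift was not tested. Over the 36 genes with both copies tested, the estimates of both copies had the same sign with stage, averaged over treatments, in 30 genes (9 higher and 21 lower). With thioridazine at NF 45 they did so in 25 (7 higher and 18 lower), and at NF 47 in 18 (10 higher and 8 lower).

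**Figure D5:**
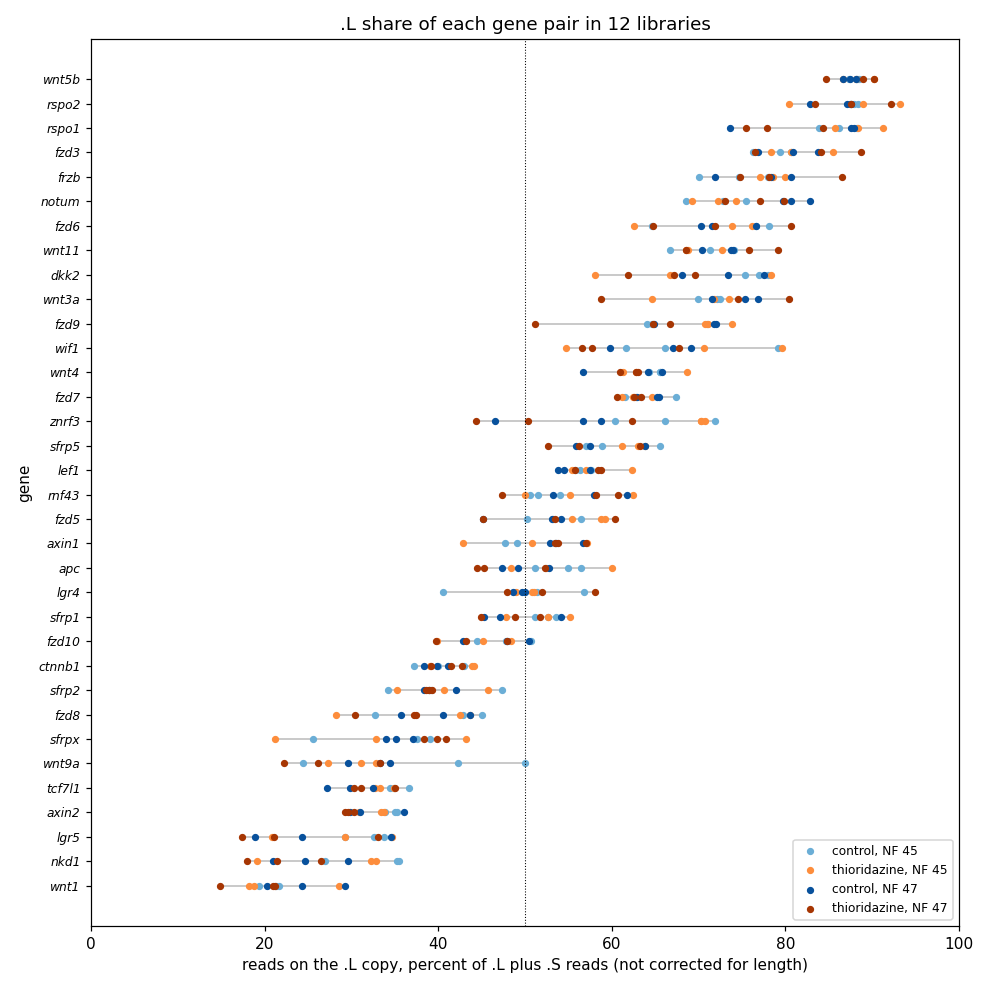
Share of the .L copy in the joint .L and .S reads, in percent, for the 34 Wnt-pathway genes with at least 20 reads in every library; each point is 1 library, coloured by group, and genes are ordered by their share over all libraries. Shares run from 21.4% for wnt1 to 87.8% for wnt5b, and the group means of znrf3 are 66.2% and 70.5% at NF 45 and 54% and 52.3% at NF 47.

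Genes of the pathway outside the symbol rule were read from a list of 80 genes, among them the alternative receptors, the polarity core and nuclear co-factors, all of which were tested. With thioridazine 0 were called at either stage or averaged, against 0% of all genes. For the averaged effect 5 of 80 had an unadjusted p under 0.05 by edgeR, against 2.95% of all genes. The smallest belonged to ror2.L, a receptor kinase for Wnt5-type ligands, at 0.42 ± 0.11 (edgeR adjusted p = 0.99992), and ror2.S gave 0.26. Between stages 1 was called, against 2.99% of all genes. That gene, gpc3.L, a glypican that holds Wnts at the cell surface, rose by 0.53 ± 0.12 (edgeR adjusted p = 0.0445). Lower in estimate were 49 of 80 (61.3%), against 54.3% of all genes.

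Of 43 genes known as Wnt targets in other settings, 36 were tested and cdx1.S was at 0 in all libraries. With thioridazine 0 were called at either stage or averaged, against 0% of all genes. Between stages 1 was called, against 2.99% of all genes. That gene, cyp26a1.L, which degrades retinoic acid, fell by 1.06 ± 0.23 on the log2 scale (edgeR adjusted p = 0.0364). In estimate 13 of 36 were lower at NF 47 (36.1%, against 54.3% of all genes).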

How the data were processed

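The authors deposited a table of unnormalized read counts for each library, listing 37018 NCBI Gene numbers. Per the submitters' processing notes, Trimmomatic, HISAT2, HTSeq and DESeq2 were used; versions, genome build, strand setting and the handling of reads that match several places are not given in the sources used here. This leaves uncertain the values of similar copies and of genes that overlap others on either strand. Per the labels' protocols, the reads were single-end and 100 bp long. Symbols came from an NCBI RefSeq gene table of a Xenopus laevis assembly, used for names only; it named 33597 numbers holding 99.3% of reads, and the other 3421 stayed in the tests unnamed.

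Tests used edgeR 4.0.16 under R 4.3.3: filterByExpr on the 4 groups, TMM scaling, and the robust quasi-likelihood F test in 1 fit of 12 libraries, with Benjamini-Hochberg adjustment over 26570 genes and calls at an adjusted p under 0.05. Standard errors are the log2 fold change over the square root of F, and the median biological coefficient of variation was 20.8%. CPM uses TMM-scaled totals; principal components and the pairing check use log2 CPM with a prior count of 2. DESeq2 1.42.0, limma-voom (limma 3.58.1), other scalings and filters, left-out libraries and replicate blocks were alternatives, and the script was tested on simulated data. Ranges beside copy shares are over libraries.

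No pair of libraries held the same counts: within groups, replicate counts differed by a chi-square of 6.91 to 52.8 per gene (genes with 20 or more reads). The labels number the replicates alike in all groups. Deviations from group means correlated between same-numbered control and exposed libraries at 0.575, 0.845 and 0.449 (NF 45) and 0.291, 0.318 and 0.54 (NF 47). All were above 0.1, the criterion set for using the number as a block within a stage. Differently numbered libraries were not compared, so these values cannot establish that the numbers pair libraries. Deviations also depend on each other through the group mean, so a library that stood apart moves the values of the other replicates. Between stages the same-numbered correlations were -0.0556, -0.128 and 0.226 in controls, which did not meet that criterion. In exposed brains they were 0.186, 0.236 and 0.429, which did.

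Named with values are, in each comparison, the members called or else the 6 with the smallest p, and, whatever their result, the copies of wnt1, wnt3a, wnt5a, wnt7b, wnt8b, fzd5, fzd8, lrp6, sfrp1, dkk1, ctnnb1, axin2, lef1, nkd1 and notum. The values of sfrpx.L, sfrpx.S, sfrp5.S and apc.L and the non-overlapping genes were singled out after they were seen. The members, lists and tests were chosen with earlier results of these data known, so no member list has a test of its own. Any p-value given for a single gene is an adjusted p, and unadjusted p enters only as counts and ranks. Intervals of single genes are not adjusted for the number of genes or for naming genes by a small p.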

Additional observations from a re-analysis of the deposited data

How the results depend on the processing

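The count of Wnt-pathway genes called was 0 for thioridazine at either stage, averaged, and for its difference between stages under all alternatives run. It left 0 in other comparisons only as follows. For NF 47 against NF 45 in controls, limma-voom called 2. For the averaged stage difference, DESeq2 called 6, limma-voom 10, scaling by library totals 1, summing the copies of each gene 1 (wif1), leaving out replicate 2 of both NF 45 groups 4, and leaving out 1 library 0 to 1. Replicate 2 of NF 45 controls was the library whose absence gave that 1. With the replicate number as a block across stages, 4 were called for the averaged stage difference (notum.S, rnf43.S, tcf7l1.L and znrf3.S), against 6.93% of all genes. Between stages, same-numbered libraries met the criterion for a block in exposed brains and not in controls. That block is shared by the stages, so it does not model pairs within each stage separately. The replicate block within stage changed no other call than those given for all genes above. The cause was not tested in any of these cases.

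Some named genes with estimates near 0 changed sign. For the averaged thioridazine effect, limma-voom gave -0.055 for fzd5.L, -0.0023 for lef1.L, -0.0020 for nkd1.S and -0.064 for wnt1.S, and the replicate block within stage without replicate 2 of both NF 45 groups gave -0.076 for fzd5.L. Leaving out 1 library at a time gave ranges of -0.082 to 0.052 for axin2.S, -0.0081 to 0.11 for ctnnb1.L, -0.14 to 0.35 for fzd5.L, -0.23 to 0.070 for fzd5.S and -0.018 to 0.12 for nkd1.S. The ranges were -0.19 to 0.0059 for notum.L, -0.059 to 0.18 for wnt1.S, -0.33 to 0.16 for wnt3a.S and -0.046 to 0.47 for wnt5a.S.

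For the averaged stage difference, scaling by library totals gave -0.032 for dkk1.S, and no low-count filter gave 0.012 for notum.L. A filter of 1 CPM in 3 libraries gave 0.0011 for lef1.S, 9.6e-05 for nkd1.S and 0.015 for notum.L. Limma-voom gave 0.028 for nkd1.S, 0.032 for notum.L and -0.031 for sfrp1.L. Without replicate 2 of both NF 45 groups the values were 0.00017 for ctnnb1.S, -0.16 for dkk1.S, 0.013 for fzd5.S, 0.060 for lef1.S, 0.15 for nkd1.S, 0.17 for notum.L and -0.011 for sfrp1.L. Leaving out 1 library gave -0.13 to 0.00059 for ctnnb1.L, -0.081 to 0.023 for ctnnb1.S, -0.10 to 0.13 for dkk1.S, -0.033 to 0.16 for fzd8.L, -0.066 to 0.043 for lef1.S, -0.094 to 0.079 for nkd1.S, -0.093 to 0.10 for notum.L and -0.027 to 0.14 for sfrp1.L. Of all estimates of named genes under alternatives, 1914 kept their sign and side of the threshold, 74 changed sign and 22 passed it. With a filter of 1 CPM in 3 libraries, 5 of 8 feedback targets were lower between stages. Low counts limit the values of wnt16, wnt5a.S, wnt3a.S, dkk1.L, dkk1.S and frzb.S.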
